A study of Mus musculus with 6 samples.

Results

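The genes of blood coagulation and fibrinolysis, without the serpin inhibitors, were followed in the livers of mice that lack Fam210a in hepatocytes. The 34 members were chosen by name, as the clotting factors, their cofactors and receptors, the plasmin system and the vitamin K enzymes, and all 34 were found by gene name among the 54532 genes of the count table. Of these, 33 had enough counts to be among the 13706 genes tested, and 1 member, F13a1, did not. Poly-A RNA of whole liver was sequenced in 6 libraries of mice 5 weeks old: 3 of the group Ctrl and 3 of the group Fam210aHKO, the hepatocyte-specific knockout of Fam210a, a gene for a mitochondrial protein. The sources used here name neither the Cre driver, the alleles of the controls, the sex of the animals nor whether each library came from 1 animal. The genotype labels of Fam210aHKO replicates 2 and 3 carry the symbols Fam211a and Fam212a, so the groups were taken from the sample titles. Since nothing says that the replicates were separate animals, p-values here reflect only how these libraries vary. Libraries of the same group differed with a chi-square per gene of 34.5 to 111, for genes with a mean of at least 50 counts. Counting noise alone would give about 1. Whether that spread came from animals or from sample preparation was not tested.

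Blood clotting is a chain of serine proteases, most of which circulate as inactive zymogens made by hepatocytes. Tissue factor with factor VII starts the chain, factors VIII and V serve as cofactors for factors IX and X, and thrombin cuts fibrinogen to fibrin, which factor XIII crosslinks. Several zymogens must be gamma-carboxylated by a vitamin K-dependent enzyme before they bind membranes. Protein C, protein S, thrombomodulin and tissue factor pathway inhibitor restrain the chain, and plasmin, made from plasminogen by its activators, dissolves the clot. Factor VIII and von Willebrand factor come from endothelial cells rather than hepatocytes.

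The libraries held 12541465 to 19655235 counts. Levels are given as CPM, counts per 1e6 after scaling each library by TMM, a normalization that assumes most genes do not change between libraries. Fam210a itself, which checks the labels, was at 119, 136 and 162 CPM in Ctrl and at 31.7, 28.6 and 44.2 CPM in Fam210aHKO, a log2 fold change of -1.99 with an SE of 0.194 (adjusted p = 4.42e-05, edgeR quasi-likelihood test). A gene is called here when its p in that test, after Benjamini-Hochberg adjustment across every tested gene, was under 0.05, and all log2 fold changes are Fam210aHKO minus Ctrl. Hepatocyte markers summed to between 148229 and 229136 CPM in Ctrl and between 84723 and 108990 CPM in Fam210aHKO, with 4 of 8 called lower and none called higher (7 lower with the replicate number as a block, 3 by library totals). Most of each sum was Alb, for albumin, so the sums largely repeat its level. Alb ranged from 110643 to 183868 CPM in Ctrl and from 68148 to 86553 CPM in Fam210aHKO, without overlap. It was not called by the main test (log2 fold change -0.88, adjusted p = 0.449, edgeR), but was called lower by DESeq2 (adjusted p = 0.000259) and by the legacy robust fit of edgeR (adjusted p = 0.0171). In whole tissue, fewer cells of a type and less RNA per cell cannot be told apart. The mean TMM factor was 0.855 for Ctrl and 1.17 for Fam210aHKO, and scaling by library totals instead raised the median log2 fold change of all tested genes by 0.45, from 0.02 to 0.47. Changes below are therefore relative to the bulk of expressed genes, and members whose sign or call depended on this choice are named.

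Most of the members that differed were lower in Fam210aHKO. Of 33 tested, 16 were called lower, 2 higher and 15 not called, against 27.5% of all tested genes called in either direction, 13.5% lower and 14.0% higher. The members lower were 48.5% of those tested and the members higher 6.06%. The lower ones were F7, F9, F10, F11, F13b, Fga, Fgb, Fgg, Plg, Proc, Proz, Klkb1, Cpb2, Hrg, Ggcx and Vkorc1. Both higher ones, F2rl1 and Plaur, were receptors with few reads in Ctrl. The members' median log2 fold change was -0.66, beside 0.02 for all tested genes, and the members ranged from -2.28 for Klkb1 to 2.91 for F2rl1. In 19 members every Fam210aHKO library lay below every Ctrl library, and in 2, again F2rl1 and Plaur, every one lay above. Over all tested genes the groups did not overlap in 20.7% lower and 22.0% higher. By library totals 13 members were lower and 8 higher, where 6.33% of all tested genes were lower and 42.7% higher. The same 13 lower and 2 higher members kept their call in every one of the 18 alternative fits, and the lower members that did not were F13b, Ggcx and Vkorc1. DESeq2 called 19 members lower and 2 higher, against 14.3% and 13.5% of all tested genes.

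**Figure D1:**
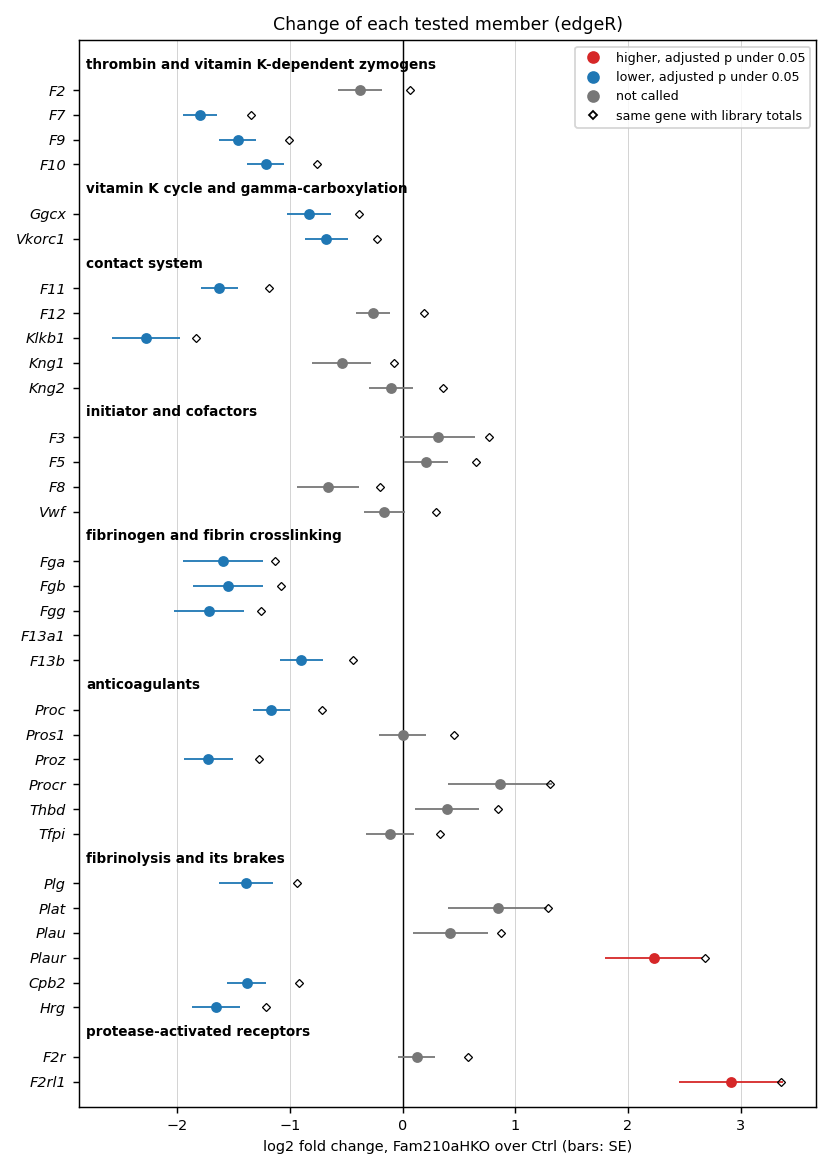
Log2 fold change (Fam210aHKO minus Ctrl) of the 33 tested members, grouped by role, with bars of 1 SE and with the value by library totals beside it. F7, F9, F10, F11, Klkb1 and the fibrinogen chains lie left of 0 under both scalings, and F2rl1 and Plaur lie right of it.

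Counts of all members together took 2.14%, 2.66% and 2.46% of all counts in the Ctrl libraries and 1.20%, 1.37% and 1.79% in the Fam210aHKO libraries. Every knockout library was thus below every control, and Fam210aHKO replicate 3 stood nearest to them. The means were 2.42% ± 0.260 and 1.45% ± 0.307 (SD, n = 3), with p = 0.1 by a two-sided exact permutation test, the smallest that 3 libraries against 3 can give.

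The vitamin K-dependent zymogens F7, F9 and F10 fell, while F2 did not pass the test. F7, the zymogen that tissue factor activates, had 93.7, 94.1 and 91.1 CPM in Ctrl and 24.1, 24.2 and 31.9 CPM in Fam210aHKO. The groups were far apart, and the Ctrl libraries were within a few CPM of each other. F7 was 3.48-fold lower (log2 fold change -1.80 with an SE of 0.155, adjusted p = 2.06e-05 by edgeR). F9, whose loss causes hemophilia B, had 326, 401 and 355 CPM against 115, 125 and 152 CPM, again without overlap. Its level in the knockout was 36.3% of that in Ctrl (log2 fold change -1.46 with an SE of 0.163, adjusted p = 0.000102, edgeR). F10, which forms the thrombin-making enzyme with factor V, had 432, 501 and 383 CPM against 174, 181 and 212 CPM. It fell to 43.1% of Ctrl (log2 fold change -1.22 with an SE of 0.163, adjusted p = 0.000331, edgeR).

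F2, prothrombin, had 1785, 1497 and 1812 CPM in Ctrl and 1250, 1310 and 1361 CPM in Fam210aHKO. Although no knockout library reached the lowest control, the difference did not pass the test (log2 fold change -0.38 with an SE of 0.192, adjusted p = 0.171, edgeR). DESeq2 called it (-0.39, adjusted p = 0.0482), and by library totals its sign turned (0.07, adjusted p = 0.797, edgeR).

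**Figure D2:**
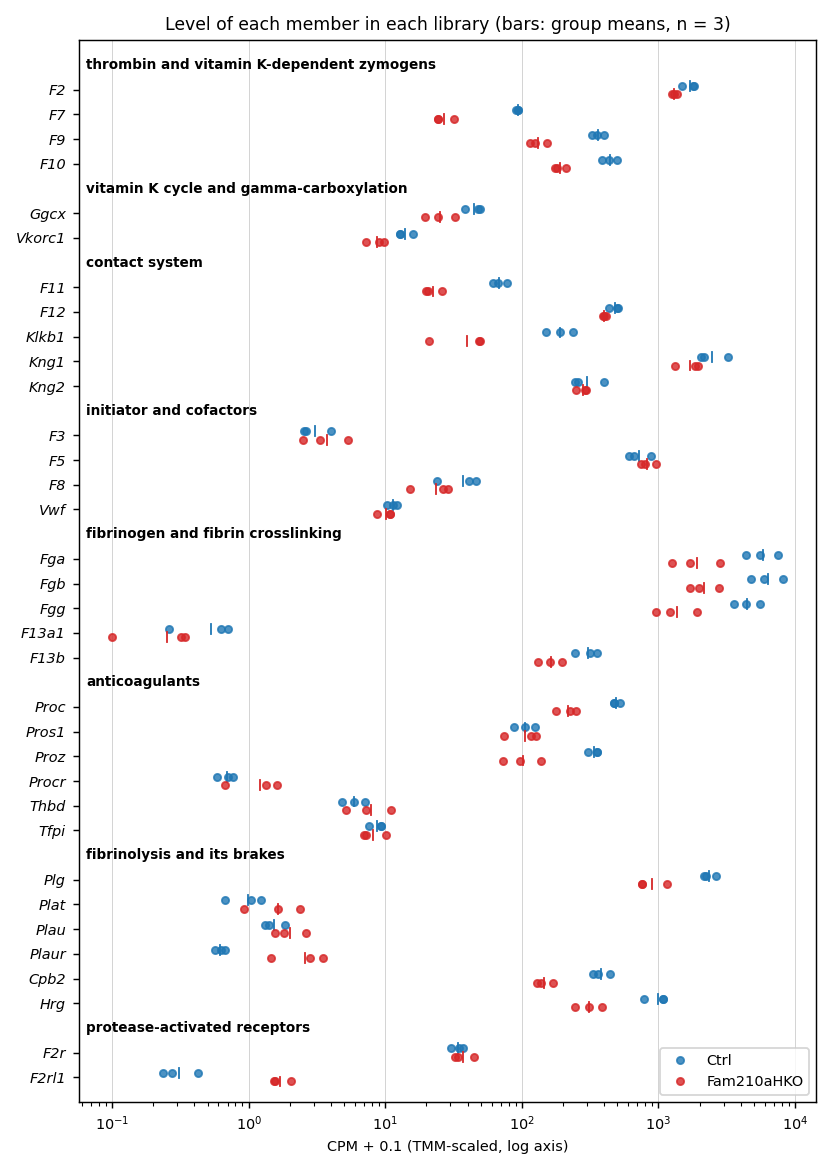
CPM plus 0.1 on a log axis for every library, with 1 point per library and the group mean as a bar, for the members by role. The 3 Fam210aHKO points lie below the 3 Ctrl points for F7, F9, F10, F11, Klkb1 and the fibrinogen chains, and above them for Plaur and F2rl1.

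Hepatocyte factors such as HNF4A and C/EBP proteins are known to act on clotting gene promoters, and many members were lower. Upstream sequence is therefore shown for F9, F7 and Fga. Of 14 promoters of members called lower, these 3 were the ones that held the HNF4 letters given below, so they are not typical. F2 and F10 held no match to any of the letters searched. Each line below gives the 150 bases before the annotated start (RefSeq, GRCm38.p6, the mm10 build), on the gene's own strand from 5′ to 3′, in lower case with motif matches in capitals. The letters searched, on both strands of the 250 bases before the start, were CAAAGNNCA for a part of the HNF4 direct repeat, TTGCNNAAT for C/EBP, TGATGNAAT for ATF4 with C/EBP and GGANTTTCC for NF-kB, where N is any base and matches could overlap. F9, F7 and Fga were called lower. They lie at chr3:83026003-83026152 on the plus strand for Fga, chrX:59999314-59999463 on the plus strand for F9 and chr8:13025884-13026033 on the plus strand for F7.
Fga: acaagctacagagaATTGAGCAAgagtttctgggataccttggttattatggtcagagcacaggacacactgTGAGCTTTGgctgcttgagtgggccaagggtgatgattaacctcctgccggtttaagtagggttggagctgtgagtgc
F9: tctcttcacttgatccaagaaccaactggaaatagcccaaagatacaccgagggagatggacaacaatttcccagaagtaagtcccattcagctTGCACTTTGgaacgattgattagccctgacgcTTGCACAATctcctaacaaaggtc
F7: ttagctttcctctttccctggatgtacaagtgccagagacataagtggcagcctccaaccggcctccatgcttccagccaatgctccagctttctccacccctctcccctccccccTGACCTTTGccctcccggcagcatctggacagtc
In Fga the capitals mark, in order, a C/EBP match 136 to 128 bases before the start and an HNF4 match at 78 to 70. F9 has an HNF4 match at 56 to 48 and a C/EBP match at 24 to 16, and F7 an HNF4 match at 34 to 26. Kng2, which was not called, has an HNF4 match at 93 to 85. The RefSeq table held 28 promoters of 26 members, with no entry for Proc, Thbd, Plat, Plg, F2rl1, Vwf, Kng1 and Plau. Of the 28, 4 (14.3%) held the HNF4 letters, against 5.49% of all 32851 promoters in the table. C/EBP letters stood in 3 (10.7% against 2.11%, with Ggcx beside Fga and F9), NF-kB letters in 2 (F3 and F13a1, 7.14% against 1.065%) and the ATF4 letters in 0 (against 0.816%). These matches describe the letters and show no binding, and most of the members called lower had none of them. The gene models of Fga and Kng2 in the count table begin upstream of their RefSeq starts, and that of F13a1 upstream of the RefSeq start with its match. The Fga model begins at 83026076, so the later part of the stretch shown, with all but the first base of the HNF4 match, lies inside it. The Kng2 and F13a1 matches lie wholly inside the counted models.

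Both enzymes of the vitamin K step were lower in Fam210aHKO, with smaller fold changes than F7, F9 and F10. Ggcx, the gamma-glutamyl carboxylase that modifies the zymogens, had 47.4, 38.1 and 48.9 CPM in Ctrl and 19.4, 24.1 and 32.0 CPM in Fam210aHKO. Its groups did not overlap, and the log2 fold change was -0.83 with an SE of 0.195 (adjusted p = 0.00899, edgeR). Vkorc1, the warfarin-sensitive reductase that regenerates vitamin K, had 15.7, 12.7 and 12.8 CPM against 8.95, 7.09 and 9.61 CPM. It was called lower too (log2 fold change -0.68 with an SE of 0.19, adjusted p = 0.0216, edgeR). By library totals neither was called, at -0.39 (adjusted p = 0.138) for Ggcx and -0.23 (adjusted p = 0.366) for Vkorc1 in edgeR. Vkorc1 also lost its call without Ctrl replicate 1 (adjusted p = 0.076) and without Fam210aHKO replicate 2 (adjusted p = 0.0959). Its transcript shares 50.5% of its 50-base windows with the overlapping gene model Gm21974, which held a mean of 0.667 counts in Ctrl and 0 in Fam210aHKO.

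In the contact system the proteases F11 and Klkb1 fell, and F12 and the kininogens did not pass the test. Klkb1, plasma prekallikrein, which releases bradykinin from kininogen, had 235, 149 and 189 CPM in Ctrl and 48.2, 20.8 and 49.1 CPM in Fam210aHKO. Replicate 2 was the lowest library of each group, and no knockout library came near a control. At 4.85-fold lower it had the largest fall among the tested members (log2 fold change -2.28 with an SE of 0.299, adjusted p = 0.000296, edgeR). F11, the zymogen that activates factor IX, had 66.4, 61.5 and 77.3 CPM against 19.9, 20.4 and 26.1 CPM. The libraries within a group were close, and F11 was 3.09-fold lower (log2 fold change -1.63 with an SE of 0.164, adjusted p = 5.51e-05, edgeR). The Klkb1 transcript shares 42.6% of its 50-base windows with the overlapping gene model Gm45753 on the same strand, which held almost no counts (means of 0.333 and 0).

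F12, the zymogen that starts the contact pathway on negatively charged surfaces, had 508, 435 and 499 CPM in Ctrl and 393, 396 and 413 CPM in Fam210aHKO. The groups did not overlap but lay close (log2 fold change -0.26 with an SE of 0.149, adjusted p = 0.222, edgeR), and by library totals the value was 0.19. Kng1, the kininogen precursor of bradykinin, had 2166, 3235 and 2033 CPM against 1321, 1942 and 1843 CPM. Ctrl replicate 2 stood above the other controls, and the difference did not pass the test (log2 fold change -0.54 with an SE of 0.259, adjusted p = 0.147, edgeR), while DESeq2 called it (-0.55, adjusted p = 0.0389). Kng2, the neighbouring paralog, had 260, 396 and 243 CPM against 250, 291 and 295 CPM, with overlapping groups (log2 fold change -0.11 with an SE of 0.196, adjusted p = 0.73, edgeR), and its value by library totals was 0.36. Kng1 and Kng2 share 17.9% and 18.2% of their 50-base windows with other transcripts, so the split of reads between these paralogs is uncertain.

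None of the initiator and cofactor genes F3, F5, F8 and Vwf was called. F5, the cofactor of factor X, had 659, 613 and 886 CPM in Ctrl and 740, 794 and 958 CPM in Fam210aHKO. Its groups overlapped, and its value was above 0 (log2 fold change 0.21 with an SE of 0.198, adjusted p = 0.475, edgeR), while by library totals it was called higher (0.65, adjusted p = 0.0255). F8, the cofactor of factor IX, had 24.0, 45.9 and 40.7 CPM against 15.0, 26.3 and 28.7 CPM. Replicate 1 was the lowest library of both groups, and Ctrl replicate 1 lay inside the knockout range (log2 fold change -0.66 with an SE of 0.274, adjusted p = 0.0986, edgeR). F8 was called lower where the replicate number entered the fit as a block (-0.66, adjusted p = 0.00229, edgeR), a fit that called 35.7% of all tested genes. It was also called in DESeq2 (adjusted p = 0.0484) and without Ctrl replicate 1 (-0.90, adjusted p = 0.0336). On the other strand, F8 overlaps Fundc2, whose mean count was 135 in Ctrl and 271 in Fam210aHKO, and the sources used here do not say whether the counting used strand. Vwf, the carrier of factor VIII, had 11.3, 12.2 and 10.2 CPM against 10.7, 8.60 and 10.7 CPM, with overlapping groups (log2 fold change -0.16 with an SE of 0.18, adjusted p = 0.547, edgeR). By library totals Vwf was at 0.30. F3, tissue factor, ranged from 2.42 to 3.90 CPM in Ctrl and from 2.39 to 5.26 CPM in Fam210aHKO (log2 fold change 0.31 with an SE of 0.333, adjusted p = 0.531, edgeR), and without Fam210aHKO replicate 3 its value was -0.07.

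Endothelial cells make the members F8, Vwf, Thbd, Procr, Tfpi and Plat. Of 12 endothelial markers, 2 were called lower (Stab2 and Clec4g) and none higher, and 11 of 12 had values below 0, with a median log2 fold change of -0.33. With the replicate number as a block 4 were lower (Kdr at adjusted p = 0.0416 and Flt1 at 0.0272 in edgeR joined), and by library totals none was lower, 1 was higher and the median was 0.13. Their summed level ranged from 400 to 494 CPM in Ctrl and from 275 to 438 CPM in Fam210aHKO. The megakaryocyte and platelet markers, cells that also hold Vwf and F5, summed to between 11.2 and 14.1 CPM in Ctrl and between 9.28 and 11.8 CPM in Fam210aHKO. Of these 11 markers 4 were tested and none was called, and Gp1bb was at 0 in all 6 libraries. The part of either cell type in the levels of F8, Vwf, Thbd, Procr, Tfpi, Plat or F5 was not tested.

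All 3 fibrinogen chains fell together, and F13b with them. Fgb, the beta chain, had 4783, 8142 and 5958 CPM in Ctrl and 1697, 1995 and 2769 CPM in Fam210aHKO. Ctrl replicate 2 was the highest library and Fam210aHKO replicate 1 the lowest, a spread seen in all 3 chains, and the groups were well apart. Fgb was 2.92-fold lower (log2 fold change -1.55 with an SE of 0.313, adjusted p = 0.00393, edgeR). Fga, the alpha chain, which carries fibrinopeptide A, had 4369, 7508 and 5581 CPM against 1247, 1694 and 2842 CPM. Its log2 fold change was -1.59 with an SE of 0.353 (adjusted p = 0.00665, edgeR). Fgg, the gamma chain, had 3583, 5515 and 4341 CPM against 961, 1208 and 1924 CPM. It was at 30.5% of Ctrl (log2 fold change -1.72 with an SE of 0.311, adjusted p = 0.00216, edgeR). F13b, the carrier subunit of factor XIII, had 244, 354 and 313 CPM against 130, 161 and 198 CPM, without overlap. F13b was called lower (log2 fold change -0.90 with an SE of 0.194, adjusted p = 0.00573, edgeR), but not by library totals (-0.44, adjusted p = 0.0692). F13a1, the catalytic subunit, which macrophages and platelets make, had 6, 2 and 9 counts in Ctrl and 5, 0 and 5 in Fam210aHKO and was not tested.

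Fibrinogen took up a smaller share of the member counts in the knockout. The 3 chains made up 52.7%, 63.3% and 56.8% of them in Ctrl and 38.8%, 41.5% and 48.8% in Fam210aHKO. No knockout library reached the lowest control (means 57.6% ± 5.38 and 43.0% ± 5.16, SD, n = 3, two-sided exact permutation p = 0.1, the smallest possible). Of all counts, the chains took 1.13%, 1.68% and 1.40% in Ctrl and 0.464%, 0.568% and 0.874% in Fam210aHKO.

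Among the anticoagulants Proc and Proz fell, while Pros1, Thbd, Procr and Tfpi were not called. Proz, protein Z, the cofactor of the factor Xa inhibitor made by Serpina10, had 355, 304 and 356 CPM in Ctrl and 97.3, 72.8 and 137 CPM in Fam210aHKO. Replicate 2 was lowest in both groups, which lay far apart. It was 3.30-fold lower (log2 fold change -1.72 with an SE of 0.216, adjusted p = 0.000223, edgeR). Proc, protein C, the zymogen of the protease that inactivates factors V and VIII, had 519, 471 and 473 CPM against 227, 178 and 249 CPM. It was at 44.6% of Ctrl (log2 fold change -1.16 with an SE of 0.167, adjusted p = 0.000511, edgeR). Pros1, protein S, the cofactor of activated protein C, had 87.7, 126 and 105 CPM against 74.1, 127 and 117 CPM. The ranges of Pros1 overlapped almost wholly, with a replicate 1 that was lowest in both groups (means 106 ± 19.0 and 106 ± 28.1 CPM, SE of the log2 fold change 0.209, adjusted p = 1, edgeR). The sign of a value this near 0 varied with the fit.

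The membrane-bound anticoagulants were at low levels. Thbd, thrombomodulin, which turns thrombin into an activator of protein C, had 4.70, 5.76 and 6.99 CPM in Ctrl and 5.07, 10.9 and 7.15 CPM in Fam210aHKO, with overlapping groups (log2 fold change 0.40 with an SE of 0.285, adjusted p = 0.336, edgeR). Procr, the endothelial protein C receptor, ranged from 0.487 to 0.672 CPM against 0.574 to 1.51 CPM (log2 fold change 0.87 with an SE of 0.462, adjusted p = 0.193, edgeR). By library totals both were called higher (Thbd 0.85, adjusted p = 0.0278, and Procr 1.31, adjusted p = 0.0344, edgeR). Tfpi, the inhibitor of the tissue factor and factor VII complex, ranged from 7.47 to 9.28 CPM and from 6.89 to 9.96 CPM (log2 fold change -0.11 with an SE of 0.211, adjusted p = 0.735, edgeR), and was at 0.33 by library totals.

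In fibrinolysis the liver-made proteins Plg, Cpb2 and Hrg fell and the urokinase receptor Plaur rose. Plg, plasminogen, had 2147, 2216 and 2633 CPM in Ctrl and 754, 757 and 1163 CPM in Fam210aHKO. Replicate 3 was highest in both groups, and there was no overlap. Plg was 2.62-fold lower (log2 fold change -1.39 with an SE of 0.237, adjusted p = 0.00154, edgeR). It overlaps Slc22a3 on the other strand, whose mean count was 76 in Ctrl and 579 in Fam210aHKO. Cpb2, the carboxypeptidase (TAFI) that removes plasminogen binding sites from fibrin, had 330, 445 and 358 CPM against 128, 138 and 167 CPM. Its log2 fold change was -1.38 with an SE of 0.172 (adjusted p = 0.000209, edgeR). Hrg, the histidine-rich glycoprotein, which binds plasminogen and heparin, had 1086, 788 and 1078 CPM against 308, 245 and 384 CPM. Replicate 2 of Hrg was lowest in both groups, and Hrg was at 31.8% of Ctrl (log2 fold change -1.65 with an SE of 0.215, adjusted p = 0.000276, edgeR).

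Plaur, the receptor that holds urokinase at the cell surface, had 0.522, 0.568 and 0.471 CPM in Ctrl and 2.73, 3.37 and 1.36 CPM in Fam210aHKO, from 6, 7 and 7 counts against 57, 49 and 31. Every knockout library was above every control, and replicate 3 was the lowest of them. Plaur was 4.68-fold higher (log2 fold change 2.23 with an SE of 0.43, adjusted p = 0.00311, edgeR). Plaur passed the filter for testing only through its Fam210aHKO counts. Its ligand Plau, urokinase, had 1.30, 1.22 and 1.75 CPM against 1.72, 1.44 and 2.54 CPM, with overlapping groups (log2 fold change 0.42 with an SE of 0.33, adjusted p = 0.375, edgeR). Plat, the tissue plasminogen activator, ranged from 0.568 to 1.13 CPM and from 0.826 to 2.28 CPM (log2 fold change 0.84 with an SE of 0.435, adjusted p = 0.178, edgeR). By library totals both activators were called higher (Plau 0.87, adjusted p = 0.0492, and Plat 1.29, adjusted p = 0.0304, edgeR).

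Of the protease-activated receptors F2rl1 rose and F2r was not called. F2rl1, PAR2, which trypsin-like proteases and the factor VII and X complex cleave, had 0.174, 0.325 and 0.134 CPM in Ctrl and 1.44, 1.44 and 1.93 CPM in Fam210aHKO. The Ctrl values rest on 2, 4 and 2 counts and the knockout values on 30, 21 and 44, and 3 counts were worth 0.132 to 0.261 CPM in these libraries. Its fitted change was 7.53-fold, the largest rise among the tested members (log2 fold change 2.91 with an SE of 0.461, adjusted p = 0.000911, edgeR). F2rl1 too passed the filter for testing only through its Fam210aHKO counts. F2r, PAR1, the thrombin receptor, had 30.1, 36.8 and 34.4 CPM against 32.1, 33.9 and 44.4 CPM. Only Fam210aHKO replicate 3 stood above the controls, and F2r was not called (log2 fold change 0.12 with an SE of 0.166, adjusted p = 0.62, edgeR), except by library totals (0.58, adjusted p = 0.0151). Without that library its value was -0.03.

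Beside Plaur and F2rl1, some markers of macrophages and bile duct cells, which can carry these receptors, were also higher. Of 13 macrophage markers, 4 were called higher (Gpnmb, Trem2, Marco and Cd68), none lower and 9 not called. The sums of the 13 overlapped, at 521 to 657 CPM in Ctrl and 434 to 829 CPM in Fam210aHKO. Values were above 0 for 11 and below 0 for 2, Timd4 (log2 fold change -0.46, adjusted p = 0.167) and Clec4f (-0.17, adjusted p = 0.607, edgeR). Of 7 cholangiocyte markers 4 were tested and 2 were called higher (Spp1 and Epcam), with sums of 39.3 to 58.5 CPM against 135 to 275 CPM. Most of each sum was Spp1, at 32.7 to 49.7 CPM in Ctrl and 127 to 256 CPM in Fam210aHKO. Krt19 (log2 fold change 1.32, adjusted p = 0.0685) and Sox9 (0.31, adjusted p = 0.589, edgeR) were not called. Stellate and fibroblast markers summed to 354 to 400 CPM against 454 to 678 CPM, with 2 of 9 called higher (Col1a1 and Col3a1). Neutrophil markers summed to 3.39 to 4.71 CPM against 2.92 to 6.12 CPM, with none called of the 2 tested out of 8. By library totals 8 macrophage, 3 cholangiocyte, 6 stellate and 1 neutrophil markers were higher, and with the block 4 stellate markers were. The part of these cell types in the levels of Plaur and F2rl1 was not tested.

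The authors' FPKM values, which divide counts by gene length, allow the members to be set in order within a group. The fibrinogen chains led in Ctrl, with mean FPKM of 3128 ± 633 for Fgg, 2824 ± 725 for Fga and 2413 ± 616 for Fgb (SD, n = 3). Their ranges overlapped each other, and all 3 lay above Kng1 at 1113 ± 275 FPKM. Plg (921 FPKM), Hrg (724 FPKM) and F2 (542 FPKM) came next, with overlapping ranges for Hrg and F2. The vitamin K-dependent zymogens F10, F9 and F7 had mean levels of 235, 193 and 73.3 FPKM in Ctrl. The cofactors F5 and F8 were far apart in level, at 142 and 5.44 FPKM. At the lower end stood Vwf at 1.02 FPKM, Procr at 0.426 FPKM, Plaur at 0.291 FPKM, Plat at 0.207 FPKM, F2rl1 at 0.112 FPKM and F13a1 at 0.0940 FPKM. In Fam210aHKO the 3 chains were still first, by mean, at 915 ± 350, 900 ± 398 and 793 ± 216 FPKM, but their ranges overlapped that of Kng1 at 734 ± 151 FPKM. In Fam210aHKO replicate 2 Kng1 (836 FPKM) stood above Fgg (807 FPKM), Fga (787 FPKM) and Fgb (733 FPKM).

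Below the leading chains the order by mean FPKM differed between the groups. F2 moved from rank 7 to rank 5, F12 from 9 to 7, F5 from 15 to 10, Kng2 from 14 to 11 and Pros1 from 20 to 16, while Hrg moved from 6 to 8 and Klkb1 from 18 to 23. F5 at 157 ± 23.8 FPKM thus stood above Cpb2, F10 and F9 in the knockout, all of which were above it in Ctrl. The length behind an FPKM exceeded the longest protein-coding transcript of a member by unequal amounts, which lowers some members beside others. It was 6241 against 2525 bases for Plat, 4594 against 1988 for F2, 16064 against 8834 for Vwf, 2617 against 1506 for Plaur, 6739 against 3952 for F13a1 and 5549 against 3361 for Proz.

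**Figure D3:**
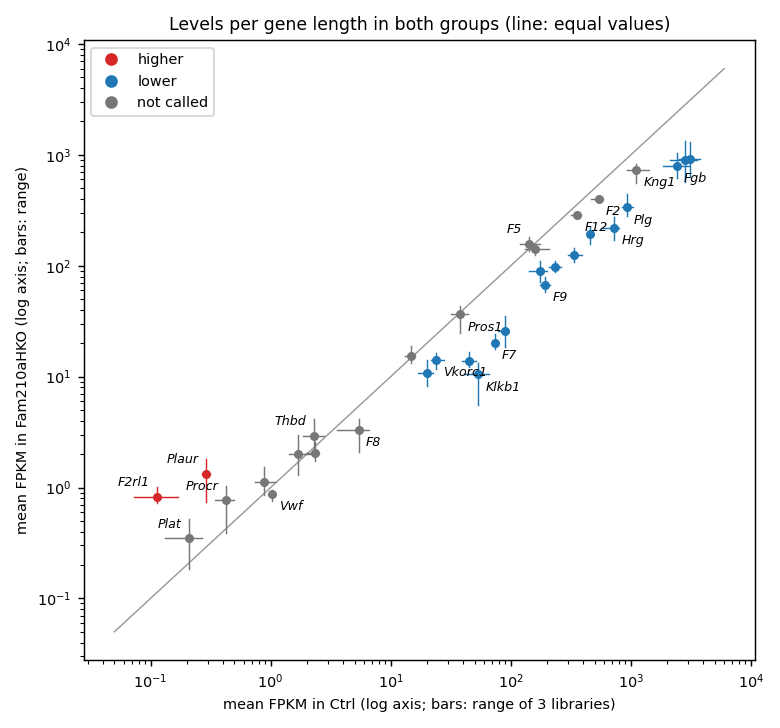
Mean FPKM of each tested member in Ctrl (x, log axis) and Fam210aHKO (y, log axis), with bars from the lowest to the highest library and a line of equal level. Levels between the groups carry the authors' scaling of FPKM. The fibrinogen chains, Klkb1, F7 and F9 lie below the line, F2rl1 and Plaur above it, and Pros1 and F5 near it.

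Several members lie side by side in the genome (mm10), and the calls of neighbours were alike in some clusters but not in others. The fibrinogen genes Fgg (chromosome 3, 83007724 to 83015049), Fga (83026076 to 83033627) and Fgb (83040141 to 83049863) are 11026 and 6513 bases apart and had log2 fold changes of -1.72, -1.59 and -1.55. On chromosome 8, F7 (13026034 to 13035809), F10 (13037308 to 13056676) and Proz (13060914 to 13076026) follow each other within 1.50 and 4.24 kb, and all 3 were lower. Further along that chromosome F11 (45241174 to 45262031) and Klkb1 (45266689 to 45294859) are 4.66 kb apart, and both were lower. On chromosome 16, Hrg (22951072 to 22961656), Kng2 (22985854 to 23029482) and Kng1 (23057865 to 23082078) are 24.2 and 28.4 kb apart, yet of these only Hrg was called. F2rl1 (chromosome 13, 95511732 to 95525227) and F2r (95601803 to 95618487) are 76.6 kb apart, and of this pair only F2rl1 was called. No protein-coding gene of the annotation lies between any of these adjacent members.

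Ratios of members within a library do not depend on library scaling, and 10 were compared in FPKM. None can reach an adjusted p under 0.05, since the smallest exact permutation p with 3 libraries against 3 is 0.1. After adjustment over the 10, the smallest exact permutation p found was 0.2. The F7 to F10 ratio was 0.319, 0.276 and 0.349 in Ctrl and 0.204, 0.196 and 0.221 in Fam210aHKO, without overlap (log2 difference -0.60, exact permutation p = 0.1). Within this pair of neighbours F7 was thus lower relative to F10 in every knockout library. The Kng1 to Kng2 ratio was 7.02, 6.86 and 7.03 in Ctrl and 4.45, 5.61 and 5.26 in Fam210aHKO (log2 difference -0.46, exact permutation p = 0.1). The Ctrl libraries were nearly equal, and all knockout libraries lay below them. The F9 to F10 ratio (log2 difference -0.26) was also lower without overlap, and the F11 to Klkb1 ratio (0.72) and the Plaur to Plau ratio (1.77) were higher without overlap, each with an exact permutation p of 0.1. For F11 to Klkb1 the margin was narrow, with a highest Ctrl ratio of 0.966 and a lowest knockout ratio of 0.967. For the fibrinogen chains the groups overlapped, with Fga to Fgb at 1.16, 1.17 and 1.19 in Ctrl and 0.930, 1.07 and 1.30 in Fam210aHKO (exact permutation p = 0.7). Overlap was also seen for Fgg to Fgb, F10 to Proz, Plg to Fgb and Thbd to Procr.

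**Figure D4:**
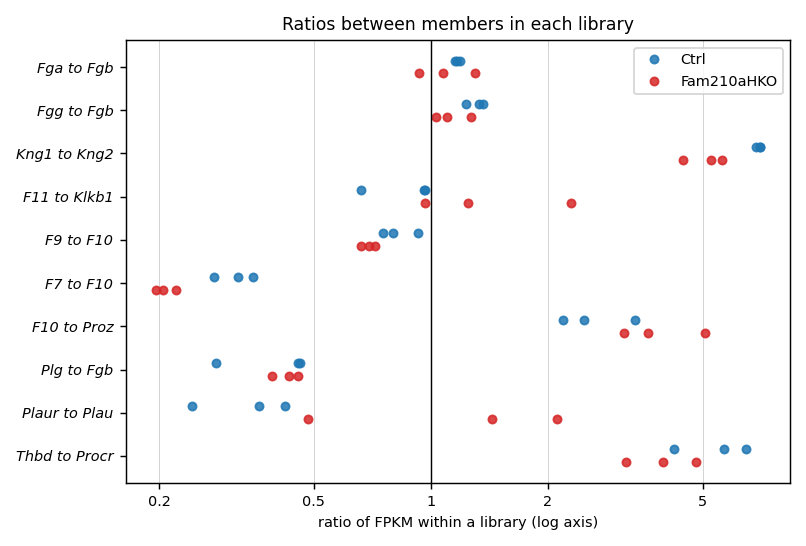
Within-library FPKM ratio (x, log axis) of 10 member pairs (y), with 1 point per library and a line at a ratio of 1. The Fam210aHKO points lie below all Ctrl points for F7 to F10, F9 to F10 and Kng1 to Kng2, and above them for F11 to Klkb1 and Plaur to Plau.

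The serpins that inhibit these proteases were lower as well. Of 9, 7 were tested, 5 were called lower and none higher, against 13.5% of all tested genes called lower. By library totals 3 were lower and 1 higher. Serpind1, heparin cofactor II, a thrombin inhibitor, had 606 ± 45.9 CPM in Ctrl and 195 ± 45.2 CPM in Fam210aHKO (SD, n = 3, log2 fold change -1.64, adjusted p = 0.000134, edgeR). Serping1, the C1 inhibitor that blocks kallikrein and factor XII, went from 843 ± 28.8 to 288 ± 41.8 CPM (a log2 fold change of -1.55, adjusted p = 9.32e-05, edgeR). Serpinf2, the plasmin inhibitor antiplasmin, was at 780 ± 107 and 358 ± 48.8 CPM (a log2 fold change of -1.12, adjusted p = 0.00103, edgeR). Serpinc1, antithrombin, was at 1830 ± 188 and 1180 ± 80.6 CPM (a log2 fold change of -0.63, adjusted p = 0.032, edgeR), and Serpina10, the protein Z-dependent inhibitor, at 169 ± 19.7 and 126 ± 9.40 CPM (a log2 fold change of -0.43, adjusted p = 0.0475, edgeR). By library totals neither Serpinc1 (-0.18, adjusted p = 0.467) nor Serpina10 (0.03, adjusted p = 0.879) was called. Serpina10 also lost its call in the legacy robust fit of edgeR (adjusted p = 0.0594). It kept the call in DESeq2 (adjusted p = 0.0326) and in edgeR with the replicate block (adjusted p = 0.0121).

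Among 26 partners in secretion, vitamin K supply, clearance and plasmin assembly, 24 were tested, with 8 called lower and 4 higher (6 lower and 9 higher by library totals). By the main test that was 33.3% lower and 16.7% higher, against 13.5% and 14.0% of all tested genes. Mug1, a murinoglobulin of the alpha-2-macroglobulin family of protease traps, had the largest change of those called lower that are named here, from 8857 ± 1518 to 1554 ± 496 CPM (SD, n = 3, log2 fold change -2.51, adjusted p = 0.000331, edgeR). Mug1 has close paralogs, so its share of the reads is uncertain. Asgr1 and Asgr2, the subunits of the hepatocyte receptor that clears desialylated glycoproteins, were called lower at log2 fold changes of -1.01 (adjusted p = 0.000539) and -1.05 (adjusted p = 0.00162, edgeR). Fetub, fetuin B, was called lower at -1.08 (adjusted p = 0.000667, edgeR). Anxa2, which with S100a10 forms a plasminogen and tPA receptor on cell surfaces, was called higher, from 9.89 ± 1.21 to 66.5 ± 8.74 CPM (a log2 fold change of 2.75, adjusted p = 3.35e-06, edgeR). S100a10 itself was not called and its groups overlapped (a log2 fold change of 0.10, adjusted p = 0.726, edgeR). Lman1 and Mcfd2, the cargo receptor through which factors V and VIII leave the endoplasmic reticulum, are named after their values were seen and were not called (log2 fold changes -0.24 and -0.09, adjusted p 0.257 and 0.731, edgeR).

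Of 20 other proteins that hepatocytes secrete, 10 were called lower, 1 higher and 9 not called. That was 50% lower and 5% higher, against 13.5% and 14.0% of all tested genes. By library totals 10 of the 20 were lower and 2 higher, against 6.33% and 42.7% of all tested genes. Their median log2 fold change was then -0.48, beside -0.20 for the members. With the replicate number as a block 14 were lower and 1 higher, against 18.0% and 17.8% of all tested genes. By the main test their median log2 fold change was -0.94, beside -0.66 for the members, of which 48.5% were lower. A fall of this size was thus not particular to the members. Apoc3, an apolipoprotein that slows triglyceride clearance, went from 2017 ± 243 to 675 ± 30.3 CPM (SD, n = 3, log2 fold change -1.58, adjusted p = 0.000196, edgeR). Apoa2, Itih1 and Apoh were called lower at -1.68, -1.16 and -1.31 (adjusted p 0.00138, 0.00155 and 0.00157, edgeR). Itih2, an inter-alpha-trypsin inhibitor heavy chain, was the 1 called higher (0.67, adjusted p = 0.0424, edgeR).

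Of 16 transcription factors with known roles in hepatocytes or in their stress response, 6 were called lower and 3 higher (2 lower and 4 higher by library totals). By the main test that was 37.5% lower and 18.75% higher, against 13.5% and 14.0% of all tested genes. Cebpa had 397, 241 and 336 CPM in Ctrl and 140, 120 and 148 CPM in Fam210aHKO (log2 fold change -1.25 with an SE of 0.192, adjusted p = 0.00076, edgeR). Hnf4a, a nuclear receptor that many clotting genes need, had 792, 642 and 936 CPM against 470, 397 and 520 CPM (log2 fold change -0.77 with an SE of 0.192, adjusted p = 0.0119, edgeR). The groups did not overlap for either gene, but by library totals Hnf4a was not called (-0.33, adjusted p = 0.209). Prox1 and Foxa2 were called lower at -0.96 and -0.86 (adjusted p 0.00114 and 0.0126, edgeR), Foxa2 not by library totals (adjusted p = 0.157). Ddit3 and Atf4, factors of the integrated stress response, were called higher at log2 fold changes of 4.08 and 1.18 (adjusted p 3.47e-05 and 0.000192, edgeR).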

How the data were processed

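Poly-A RNA of liver was sequenced in 6 libraries, 3 per group. The authors deposited raw counts per gene in a table and FPKM in a separate table. The submitters' processing notes name STAR and featureCounts for mm10, with FastQC, Trimmomatic and DESeq2. Versions, strand setting and the handling of multiply mapped reads: not given in the sources used here. FPKM values are as the authors deposited them and were used to compare genes within a library or by group mean, and between groups in a pair of alternative fits and a plot. Library totals were 12541465 to 19655235 counts, at which 3 counts are worth 0.132 to 0.261 CPM. No other per-sample columns were left unused.

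Counts were fitted in R 4.3.3 with edgeR 4.0.16 (TMM, filterByExpr with a minimum count of 10, group as the only term, quasi-likelihood F test, two-sided, Benjamini-Hochberg over 13706 genes, called under 0.05). The SE of a log2 fold change is its size divided by the square root of F. The common biological coefficient of variation was 0.196. The procedure was tested on simulated data. Alternatives were scaling by library totals, by the upper quartile or by the median of ratios, no filter, at least 1 CPM in 3 libraries, DESeq2 1.42.0, limma 3.58.1 (voom, and log2 of FPKM with a pseudocount of 1 or 0.1), the legacy robust quasi-likelihood fit, protein-coding genes only, the replicate block and leaving out each library. Deviations of libraries with the same replicate number correlated at 0.245, 0.182 and 0.155 and those of other pairs between -0.141 and -0.0262. The replicate block therefore takes the numbers to pair the libraries, while the main fit and the permutation tests do not use this pairing. The pairing comes from these data. Single values were compared by exact permutation tests over the 6 libraries.

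Members and lists were chosen with earlier results of these data known. Every member was described; of other lists, Fam210a, Alb, all called serpins and up to 4 called genes with the smallest p, plus up to 2 in the other direction, were named. Promoters came from RefSeq (GRCm38.p6, the mm10 build) and shared 50-base windows from GENCODE transcripts. A few items of the lists are not reported here.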

Additional observations from a re-analysis of the deposited data

How the results depend on the processing

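By library totals 8 members were called higher rather than 2, all tested genes called higher were 5846 rather than 1922 and lower 868 rather than 1852, 10 rather than 4 genes of the serpin and partner lists were higher, and the members' median log2 fold change was -0.20 rather than -0.66. That scaling turned the sign of F2 (0.069), F12 (0.19), Kng2 (0.36), Vwf (0.30) and Tfpi (0.33), none called in either fit. Leaving out 1 library gave 15 to 16 members lower and 2 higher, 2 to 4 serpin and partner genes higher (2 without Ctrl replicate 3) and medians from -0.77 to -0.44 (the latter without Fam210aHKO replicate 1). It turned the sign of F3 (-0.073) and F2r (-0.033) without Fam210aHKO replicate 3 and of Kng2 (0.13) without Ctrl replicate 2, with ranges of -0.073 to 0.55 for F3, -0.033 to 0.20 for F2r and -0.25 to 0.13 for Kng2. Pros1, at 0.00, was at -0.012 with median-of-ratios scaling, -0.013 with the stricter filter and with DESeq2, -0.017 with voom, -0.016 with protein-coding genes only, -0.00036 in the legacy fit, -0.085 with a pseudocount of 1 and -0.088 with one of 0.1 on FPKM, and -0.15 to 0.19 with 1 library left out. With the replicate block 17 members were lower and 2 higher, Pros1 was at -0.022, and F8 was the only member whose call changed. In fits that leave a group with 2 libraries the spread is pooled over both groups. Depth limits Plaur, F2rl1, Plat, Procr and F13a1, with under 20 counts in every Ctrl library. The causes of these differences were not tested.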
